A study of Homo sapiens with 12 samples.

Results

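Mesenchymal and cytoskeletal stromal markers are genes whose products build and cross-link the extracellular matrix, form the contractile cytoskeleton or sit on the surface of fibroblast-like cells. The set held 34 such genes, chosen by name, and all 110 probe sets that the array annotation pairs with them were taken, out of 54674 probe sets with values. They were read in human multiple myeloma cells, the malignant plasma cells of the bone marrow, of the lines MM.1S, MM.1R and INA-6, all of which stably carried green fluorescent protein (GFP). MM.1R is the dexamethasone-resistant derivative of MM.1S, and INA-6 is a line that needs interleukin 6. The coculture groups had spent 24 hours with HS-5, an immortalised human bone marrow stromal line without GFP, and the alone groups had spent the same time without it. GFP-positive cells were separated from HS-5 by flow sorting. The 6 groups (3 lines, coculture or alone) were each read on 2 Affymetrix U133 Plus 2.0 arrays, described by the submitters as technical replicates. No HS-5 sample entered the comparison, so RNA that HS-5 left in a sorted sample and RNA made by the myeloma cells themselves cannot be told apart. In such bulk samples fewer cells of a type and less RNA per cell cannot be told apart either.

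Stromal fibroblasts of the marrow secrete fibronectin, collagens and small proteoglycans, and lysyl oxidases then link the collagen and elastin fibres. The same cells contract through actin, tropomyosin and myosin light chain, anchor membrane signalling in caveolae, and carry surface proteins such as THY1 and NT5E by which mesenchymal stromal cells are recognised. Plasma cells are not known for building matrix, but several genes of the set, such as VIM, LGALS1 and CD99, are active in many blood cells as well, and caveolin has been described in myeloma cells.

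Promoters were matched in RefSeq for 24 of the 34 genes, giving 36 windows of 250 bases before and 50 after the start site, on build GRCh38.p14. The windows of 3 genes are shown because GNG11 and TMEM158 had the largest changes of the set, while POSTN had no probe set bright enough to be tested. The windows lie at chr7:93921485-93921784 on the plus strand (GNG11), chr3:45226238-45226537 on the minus strand (TMEM158) and chr13:37598719-37599018 on the minus strand (POSTN). Capitals mark TGANTCA, the motif of AP-1 factors, and TATAAA, the TATA box, on either strand.
GNG11: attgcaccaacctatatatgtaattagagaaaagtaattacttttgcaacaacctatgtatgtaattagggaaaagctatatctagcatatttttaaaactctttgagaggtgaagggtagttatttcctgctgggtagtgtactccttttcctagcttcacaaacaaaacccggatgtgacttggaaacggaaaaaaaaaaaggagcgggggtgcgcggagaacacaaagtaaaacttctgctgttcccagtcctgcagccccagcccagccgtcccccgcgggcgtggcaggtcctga
TMEM158: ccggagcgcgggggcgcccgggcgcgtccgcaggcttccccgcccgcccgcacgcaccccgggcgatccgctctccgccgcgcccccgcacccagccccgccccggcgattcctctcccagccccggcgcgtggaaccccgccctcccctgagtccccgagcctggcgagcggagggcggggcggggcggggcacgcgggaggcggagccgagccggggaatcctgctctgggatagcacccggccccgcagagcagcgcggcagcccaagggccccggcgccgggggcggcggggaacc
POSTN: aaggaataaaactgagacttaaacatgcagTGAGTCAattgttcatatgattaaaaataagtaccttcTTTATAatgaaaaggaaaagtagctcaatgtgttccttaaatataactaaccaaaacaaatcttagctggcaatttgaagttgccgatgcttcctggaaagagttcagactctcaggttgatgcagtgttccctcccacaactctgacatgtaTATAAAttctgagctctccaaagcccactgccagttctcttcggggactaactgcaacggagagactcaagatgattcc
The GNG11 and TMEM158 windows hold neither motif, and they differ in base composition, with 44.7% G or C and 9 CpG in GNG11 against 82.7% and 46 CpG in TMEM158. The POSTN window holds 39.0% G or C and 3 CpG, with TGAGTCA starting 220 bases before the start site, a TATA box starting 29 bases before it, and the same letters on the other strand (TTTATA) starting 182 bases before it. Over all 35116 promoters of the same length the median was 58.7% G or C with 14 CpG, TGANTCA stood in 7.71% and TATAAA in 11.53%. Among the genes of the set, TGANTCA was found in the windows of 2 (CALD1 and POSTN) and TATAAA in those of 3 (CALD1, ANXA1 and POSTN). The CArG box, the site of serum response factor in contractile genes, was searched only in its strict form, CCWWWWWWGG with W for A or T. That strict form was in 0 of the 24 genes' windows and in 1.29% of all promoters. Close variants were not counted, and an ACTA2 window holds such strings (CCCTATATGG and CCTTGTTTGG). TAGLN and MYL9 are not among the 24 genes, so the count does not show that contractile promoters lack the site. A match is a string of letters and does not show binding.

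All values are the deposited intensities on a linear scale, and median values per array lay between 19.78 and 24.09. Most plasma cell markers were read under both conditions. Lead probe sets of 13 of 14 myeloma and plasma cell markers summed to 36610 to 37152 after coculture against 19068 to 19084 alone for MM.1S. The sums were 36983 to 37342 against 28192 to 28584 for MM.1R and 24917 to 25087 against 28973 to 30137 for INA-6. Of the 13, SDC1, TNFRSF17, IRF4, XBP1, JCHAIN, MZB1, POU2AF1 and PIM2 had a lowest group mean of 569.7 (IRF4 in MM.1S alone). The other 5 were lower in some groups. CD38 ran from 73.6 (MM.1R alone) to 209.5 (MM.1S coculture), PRDM1 was lowest in INA-6 alone (127), ELL2 in MM.1S alone (238) and SLAMF7 in INA-6 coculture (269). CD79A was at most 75.6, and CD27 had no tested probe set. RNA quality moved with coculture and in opposite directions among the lines. The 3′ to 5′ ratio of ACTB, which grows as RNA is shortened, was 5.10 ± 0.191 after coculture against 22.4 ± 0.455 alone in MM.1S (SD, n = 2 arrays). It was 5.21 ± 0.285 against 31.4 ± 1.16 for MM.1R and 32.0 ± 0.530 against 5.51 ± 0.291 for INA-6 (SD, n = 2 arrays). The BioB spike-in, added in a fixed amount, read 338 after coculture against 1832 alone for MM.1S, 384 against 543 for MM.1R and 777 against 3388 for INA-6. The part of RNA quality and labelling in the results that follow was not tested. Duplicates correlated at 0.835 across probe sets in INA-6 alone and at 0.938 to 0.983 in the other groups, so values of INA-6 alone carry the widest error.

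Over the 3 lines, 12 of the 32 genes with a tested probe set rose after coculture and 0 fell. Of the 110 probe sets, 74 lay above the median of their array on at least 2 arrays and were tested, covering 32 genes, and 36 did not (values from 1.0 to 47.69). LUM and POSTN had no tested probe set. In the limma fit across lines, 18 of 74 probe sets were higher (24.3%; 1.11% of all 35664 tested probe sets were higher) and 0 were lower (0.0168% of all). At an unadjusted p under 0.05, 33 were higher and 0 lower, but these counts were not made over all tested probe sets and have no background here. The 18 that passed belong to 12 genes: FN1, SPARC, FSTL1, LOX, LOXL2, TPM1, S100A6, NT5E, CD99, GNG11, TMEM158 and CLDN11. Of the 74, 8 lay below the array median on all 6 alone arrays and entered the test only through coculture arrays. The lead probe sets of LOX, TMEM158 and CLDN11 are among these 8. They could be tested only if bright after coculture, so their rise is partly set by the filter. Since the filter asks for 2 arrays, probe sets with only 1 alone array above its median also needed a coculture array to be tested. Among these are the lead probe sets of NT5E and TPM2 and the other tested probe set of LOX. Counted with 1 probe set per gene, 15 of the 32 genes were higher (3.28% of 15052 genes), AXL, FBN1 and TPM2 among them, and 0 lower (0.106% of all). The median change of the 74 was 0.99 on the log2 scale, beside 0.18 for all tested probe sets. Fitted changes are on the log2(value + 5) scale, which understates the change of low genes. Without any test, the lowest of the 6 coculture arrays stood above the highest of the 6 alone arrays for 28 of the 74 (37.8%, against 10.9% of all tested probe sets), and the reverse held for 0 (1.91% of all). A change of at least 2-fold upwards in each line was seen in 24 of the 74 (32.4%, against 5.47% of all).

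**Figure D1:**
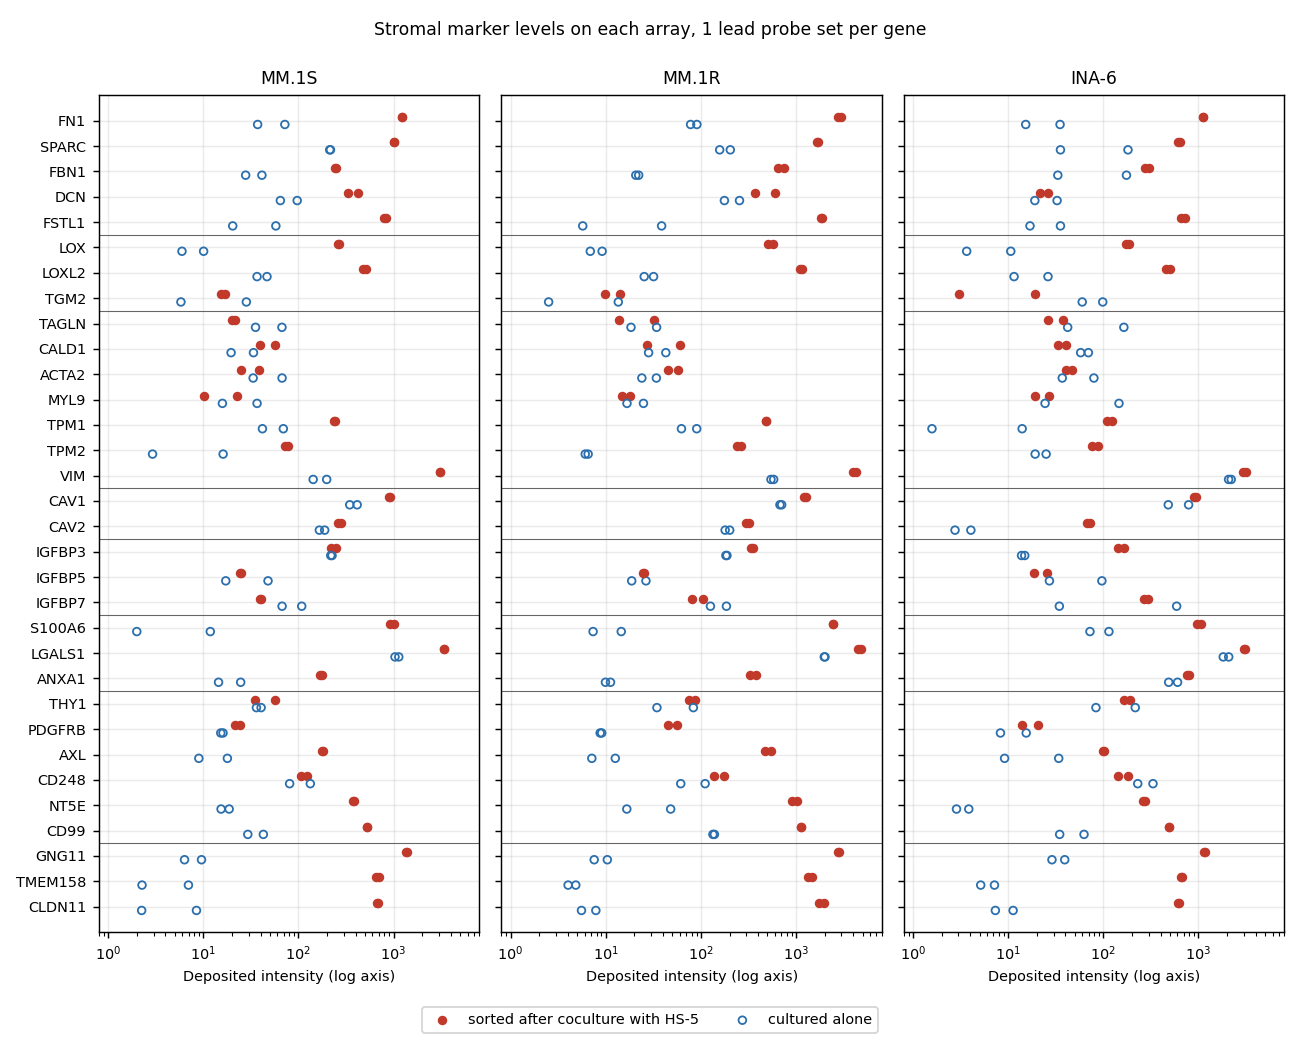
Intensity (horizontal log axis) of the lead probe set, the tested probe set with the highest mean, of each of 32 genes on the 12 arrays, by line. In each gene's row the filled points for coculture are drawn just above the open points for cells alone. FN1, FSTL1, GNG11, TMEM158 and CLDN11 stand far apart between the conditions, while ACTA2, TAGLN and IGFBP5 stay low in both.

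Secreted matrix glycoproteins rose for 3 of the 5 genes with a tested probe set, and 2 did not pass. FSTL1, a secreted follistatin-like glycoprotein of mesenchymal cells, had the largest change among the lead probe sets of this group, while 3 probe sets of FN1 that are not its lead changed more. Its intensity after coculture was 840.4 and 803 in MM.1S, 1860.2 and 1832 in MM.1R and 715 and 661 in INA-6, against 57.9 and 20.4 in MM.1S, 5.73 and 38.7 in MM.1R and 16.9 and 35.4 in INA-6 in cells alone. The lowest coculture array stood more than 10 times above the highest alone array. The change was 5.11 ± 0.51 (log2, SE, n = 6 averaged values; limma adjusted p = 0.0121). FN1, the fibronectin that cells lay down as an early matrix scaffold, was read by 5 tested probe sets, of which 4 rose, by 4.91 to 5.40, and the other stood at -0.29. SPARC, a matricellular protein that binds collagen, rose on both of its probe sets, by 2.75 ± 0.40 on the lead (limma adjusted p = 0.0378, n = 6). Without replicate 1 or replicate 2 of INA-6 alone the lead of SPARC missed the threshold, with limma adjusted p of 0.0636 and 0.0726. In cells alone SPARC already read 35.4 to 217, and its lowest array was a duplicate of INA-6.

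FBN1, the fibrillin of elastic microfibrils, stood at 3.07 ± 0.60 with a limma adjusted p of 0.0737 (n = 6) and did not pass, although its coculture arrays (242 to 750.2) all lay above its alone arrays (20.7 to 175). DCN, the collagen-binding proteoglycan decorin, had the smallest change of the group. Its lead probe set read 424 and 329 in MM.1S, 374 and 605 in MM.1R and 26.4 and 21.6 in INA-6 after coculture, against 64.6 and 97 in MM.1S, 177 and 255 in MM.1R and 19.1 and 32.6 in INA-6 alone. Coculture arrays were higher in MM.1S and MM.1R, whereas in INA-6 both conditions were low and overlapped. The common change was 1.09 ± 0.51 (log2, SE, n = 6; limma adjusted p = 0.296), and its 5 tested probe sets ran from -1.02 to 1.83. LUM, another small proteoglycan of collagen fibrils, read at most 9.69 on any array and probe set. POSTN, the matricellular periostin whose promoter is printed above, read 1.0 to 47.69, with its top value on an array of INA-6 alone.

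Both lysyl oxidases rose and the transglutaminase did not pass. LOX, which oxidises lysines of collagen and elastin for cross-linking, read 266 and 260.4 in MM.1S, 571 and 507 in MM.1R and 173 and 188 in INA-6 after coculture, against 10.1 and 5.97 in MM.1S, 9.16 and 6.88 in MM.1R and 3.66 and 10.6 in INA-6 alone. Every coculture array was more than 10 times above every alone array. Its change was 4.59 ± 0.43 (log2, SE, n = 6; limma adjusted p = 0.0103), and the other LOX probe set rose by 4.36. LOXL2, a relative of LOX that acts on collagen IV, rose by 4.30 ± 0.45 on its lead probe set (limma adjusted p = 0.0138, n = 6), with the other tested probe set at -0.27. TGM2, tissue transglutaminase, read 15.3 and 16.7 in MM.1S, 14 and 9.91 in MM.1R and 19 and 3.03 in INA-6 after coculture, against 28.4 and 5.82 in MM.1S, 2.51 and 13.6 in MM.1R and 60 and 98.5 in INA-6 alone. The highest values were the arrays of INA-6 alone, and the other groups lay around or below the array medians. The common change of this lead probe set was -0.64 ± 0.64 (log2, SE, n = 6; limma adjusted p = 0.597). The other tested TGM2 probe set stood at 0.88 ± 0.45 and did not pass either (limma adjusted p = 0.331, n = 6).

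Of 7 contractile and filament genes 1, the tropomyosin TPM1, rose and 6 did not pass. TPM2, the tropomyosin partner that also covers actin filaments, had the largest change. Its arrays read 71.7 and 78.5 in MM.1S, 263 and 239 in MM.1R and 87.2 and 76.9 in INA-6 after coculture, against 16.2 and 2.93 in MM.1S, 6.09 and 6.53 in MM.1R and 19.2 and 25 in INA-6 alone. No coculture array reached down to the alone arrays, yet the change of 2.94 ± 0.58 did not pass (limma adjusted p = 0.0776, n = 6). TPM1 rose by 2.70 ± 0.43 on its lead probe set (limma adjusted p = 0.0471, n = 6), and missed the threshold without replicate 1 or replicate 2 of INA-6 alone (0.0859 and 0.0505). Its other 4 tested probe sets ran from -0.25 to 1.34 and did not pass. TAGLN, the smooth-muscle actin-binding protein transgelin, had the smallest change on its lead probe set. It read 20.2 and 21.8 in MM.1S, 32.1 and 13.9 in MM.1R and 26.3 and 37.5 in INA-6 after coculture, against 35.4 and 67.1 in MM.1S, 34.2 and 18.4 in MM.1R and 42.2 and 164 in INA-6 alone. The groups overlapped, the top value was a single array of INA-6 alone, and the change was -0.85 ± 0.41 (log2, SE, n = 6; limma adjusted p = 0.31). The other TAGLN probe set stood at 1.03, with 80.8 and 69.7 in INA-6 after coculture, against 13.9 and 8.67 in INA-6 alone.

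ACTA2, the smooth-muscle actin of myofibroblasts, stood at -0.04 ± 0.43, MYL9, a regulatory myosin light chain, at -0.68 ± 0.41, and CALD1, the actin-binding caldesmon, at 0.08 ± 0.44 (log2, SE, n = 6 averaged values). None of the 3 passed, with limma adjusted p of 0.97 for ACTA2, 0.385 for MYL9 and 0.929 for CALD1. The top value of the MYL9 lead was a single array of INA-6 alone (146). Another MYL9 probe set stood at 0.87 ± 0.43 and did not pass (limma adjusted p = 0.318, n = 6). Within lines it rose in MM.1S and MM.1R (limma adjusted p = 0.0235 and 0.00277, n = 2 arrays a group), not in INA-6 (0.602). Its group means were 26.3, 48.7 and 17.9 after coculture, against 12.4, 12.6 and 15.7 alone, with the lines in that order. All its alone arrays lay below the array medians. The signs of ACTA2 and CALD1 changed when single arrays or lines were left out, and CALD1 stood at -0.14 after quantile normalization. The 6 tested probe sets of CALD1 disagreed, since another one read 32.7 to 152 after coculture against 4.21 to 16.1 alone, a change of 2.47 ± 0.43 (limma adjusted p = 0.0568, n = 6). VIM, the intermediate filament of mesenchymal cells and of many blood cells, was described per array after its values were seen. It read 3089 and 3043 in MM.1S, 4227 and 3983 in MM.1R and 3155 and 2922 in INA-6 after coculture, against 143 and 198 in MM.1S, 582 and 545 in MM.1R and 2072 and 2208 in INA-6 alone. Levels after coculture lay within 1.5-fold of each other across the lines, while levels alone were lowest in MM.1S and highest in INA-6. The common change of 2.50 ± 0.69 did not pass (limma adjusted p = 0.135, n = 6).

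Caveolins, the coat proteins of caveolae, did not pass in the common fit. CAV1 was present in cells alone. Its lead probe set read 912 and 887 in MM.1S, 1274 and 1225 in MM.1R and 905 and 935 in INA-6 after coculture, against 346 and 415 in MM.1S, 707 and 678 in MM.1R and 787 and 481 in INA-6 alone. Coculture arrays were higher than all alone arrays, by less than 3-fold within each line, and the change was 0.89 ± 0.38 (log2, SE, n = 6; limma adjusted p = 0.269). The other CAV1 probe set was likewise separated and changed more. It read 639 and 639 in MM.1S, 939 and 919.9 in MM.1R and 602 and 591 in INA-6 after coculture, against 51 and 105 in MM.1S, 257 and 250.3 in MM.1R and 348 and 299 in INA-6 alone. That was 8.22-fold higher in MM.1S, 3.66-fold in MM.1R and 1.85-fold in INA-6, with a common change of 1.92 ± 0.50 (log2, SE, n = 6; limma adjusted p = 0.125). CAV2, which assembles with CAV1, read 261 and 283 in MM.1S, 324 and 296 in MM.1R and 67.8 and 73.2 in INA-6 after coculture, against 166 and 189 in MM.1S, 201 and 179.9 in MM.1R and 2.76 and 4.05 in INA-6 alone. INA-6 alone was near the floor and its coculture arrays stayed below every MM.1S and MM.1R array of either condition. The common change of CAV2 was 1.49 ± 0.59 (limma adjusted p = 0.237, n = 6).

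Binding proteins of insulin-like growth factors did not pass either. IGFBP3, the main carrier of these growth factors in blood, read 248 and 219.9 in MM.1S, 353 and 332 in MM.1R and 142 and 164 in INA-6 after coculture, against 226 and 219 in MM.1S, 188 and 183 in MM.1R and 13.8 and 14.9 in INA-6 alone. In MM.1S the conditions overlapped in level, in MM.1R coculture was less than 2-fold higher, and in INA-6 it was about 10 times higher. The common change was 1.32 ± 0.61 (log2, SE, n = 6; limma adjusted p = 0.287). IGFBP5, a matrix-associated member of the family, read 24.1 and 25.2 in MM.1S, 25.1 and 24.8 in MM.1R and 25.8 and 18.6 in INA-6 after coculture, against 17.2 and 47.9 in MM.1S, 26.5 and 18.7 in MM.1R and 27.1 and 96.5 in INA-6 alone. The highest arrays were a duplicate of INA-6 alone and a duplicate of MM.1S alone, with the conditions overlapping, and the change was -0.39 ± 0.42 (limma adjusted p = 0.623, n = 6). IGFBP7, a secreted protein of vessel walls and stroma, stood at -0.26 ± 0.49 (limma adjusted p = 0.783, n = 6). Its duplicates in INA-6 alone disagreed, at 589.5 and 34.5, and leaving out the first turned the common change of IGFBP7 to 0.39.

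Among the calcium-binding and lectin genes S100A6 rose. S100A6, a small calcium-binding protein of proliferating fibroblasts, read 919.9 and 1013 in MM.1S, 2474 and 2430.2 in MM.1R and 1051 and 964 in INA-6 after coculture, against 2.0 and 11.8 in MM.1S, 14.6 and 7.36 in MM.1R and 114 and 72.3 in INA-6 alone. The conditions were far apart in all lines, with INA-6 alone the highest of the alone groups. The change was 5.73 ± 0.74 (log2, SE, n = 6; limma adjusted p = 0.0274). LGALS1, the secreted galectin 1, was abundant in every sample. It read 3409 and 3378 in MM.1S, 4825 and 4526 in MM.1R and 3069.8 and 3045 in INA-6 after coculture, against 1135 and 1036 in MM.1S, 1982 and 2016 in MM.1R and 1821 and 2079 in INA-6 alone. Coculture arrays lay above all alone arrays, by less than 4-fold within each line, and the change of 1.17 ± 0.40 did not pass (limma adjusted p = 0.196, n = 6). ANXA1, a calcium-dependent phospholipid-binding protein, was described per array after its values were seen. It read 168 and 179 in MM.1S, 381 and 329.7 in MM.1R and 803 and 761 in INA-6 after coculture, against 24.7 and 14.5 in MM.1S, 9.93 and 11.2 in MM.1R and 603 and 486 in INA-6 alone. INA-6 read above the other lines in both conditions, and its alone arrays stood above the MM.1S and MM.1R coculture arrays. The common change was 2.65 ± 0.73 (log2, SE, n = 6; limma adjusted p = 0.137).

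Of 6 surface protein genes, NT5E and CD99 rose and the other 4 did not pass. NT5E encodes CD73, an enzyme that makes adenosine outside the cell and is one of the surface antigens of mesenchymal stromal cells. It read 379 and 373 in MM.1S, 1034 and 911 in MM.1R and 262 and 271 in INA-6 after coculture, against 15.4 and 18.7 in MM.1S, 48.1 and 16.6 in MM.1R and 3.85 and 2.86 in INA-6 alone. Coculture was at least 10 times above alone in each line, and the change was 4.66 ± 0.40 (log2, SE, n = 6; limma adjusted p = 0.00886). CD99, a surface glycoprotein of leukocytes and mesenchymal tumours, rose by 3.32 ± 0.39 (limma adjusted p = 0.0196, n = 6). AXL, the receptor tyrosine kinase for GAS6, stood at 3.56 ± 0.60 with an adjusted p of 0.0527 by limma (n = 6), the closest of the lead probe sets that missed the threshold. Its coculture arrays (99 to 551) lay above its alone arrays (7.14 to 34). PDGFRB, the PDGF receptor of pericytes and fibroblasts, stood at 0.95 ± 0.47 and THY1, the CD90 antigen of fibroblasts, at 0.37 ± 0.37, with limma adjusted p of 0.313 and 0.599 (n = 6). CD248, the endosialin of pericytes and tumour stroma, had the smallest change of the group. It read 123 and 107 in MM.1S, 137 and 174 in MM.1R and 181 and 142 in INA-6 after coculture, against 133.4 and 80.8 in MM.1S, 61.4 and 111 in MM.1R and 229.9 and 332 in INA-6 alone. The conditions overlapped and INA-6 alone was the highest, with a change of 0.08 ± 0.45 (log2, SE, n = 6; limma adjusted p = 0.936) that stood at -0.34 after quantile normalization.

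The last 3 genes had the largest changes of the set, and all of them rose. TMEM158, a membrane protein first described as induced by Ras signalling, read 708 and 648 in MM.1S, 1339.8 and 1465 in MM.1R and 651 and 670.4 in INA-6 after coculture, against 6.98 and 2.27 in MM.1S, 4.02 and 4.84 in MM.1R and 7.17 and 5.14 in INA-6 alone. CLDN11, a claudin of tight junctions, read 673 and 681 in MM.1S, 1733 and 1992 in MM.1R and 603 and 620.1 in INA-6 after coculture, against 8.48 and 2.25 in MM.1S, 7.87 and 5.56 in MM.1R and 7.33 and 11.3 in INA-6 alone. For both, all alone arrays stood below the array medians and all coculture arrays were more than 50 times higher than any of them. Both therefore entered the test only through their coculture arrays. The changes were 6.44 ± 0.43 for TMEM158 and 6.29 ± 0.48 for CLDN11 (log2, SE, n = 6; limma adjusted p = 0.00864 for each). GNG11, a gamma subunit of heterotrimeric G proteins, is given per array for the promoter printed above, a choice made after its values were seen. It read 1339 and 1373 in MM.1S, 2853 and 2779.5 in MM.1R and 1145 and 1176 in INA-6 after coculture, against 6.35 and 9.58 in MM.1S, 7.56 and 10.4 in MM.1R and 28.8 and 39.3 in INA-6 alone. Its alone arrays lay below the array medians in MM.1S and MM.1R, and above them in INA-6 at about 4 times the level of the other lines. For GNG11 the change was 6.43 ± 0.57 (log2, SE, n = 6; limma adjusted p = 0.00955).

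**Figure D2:**
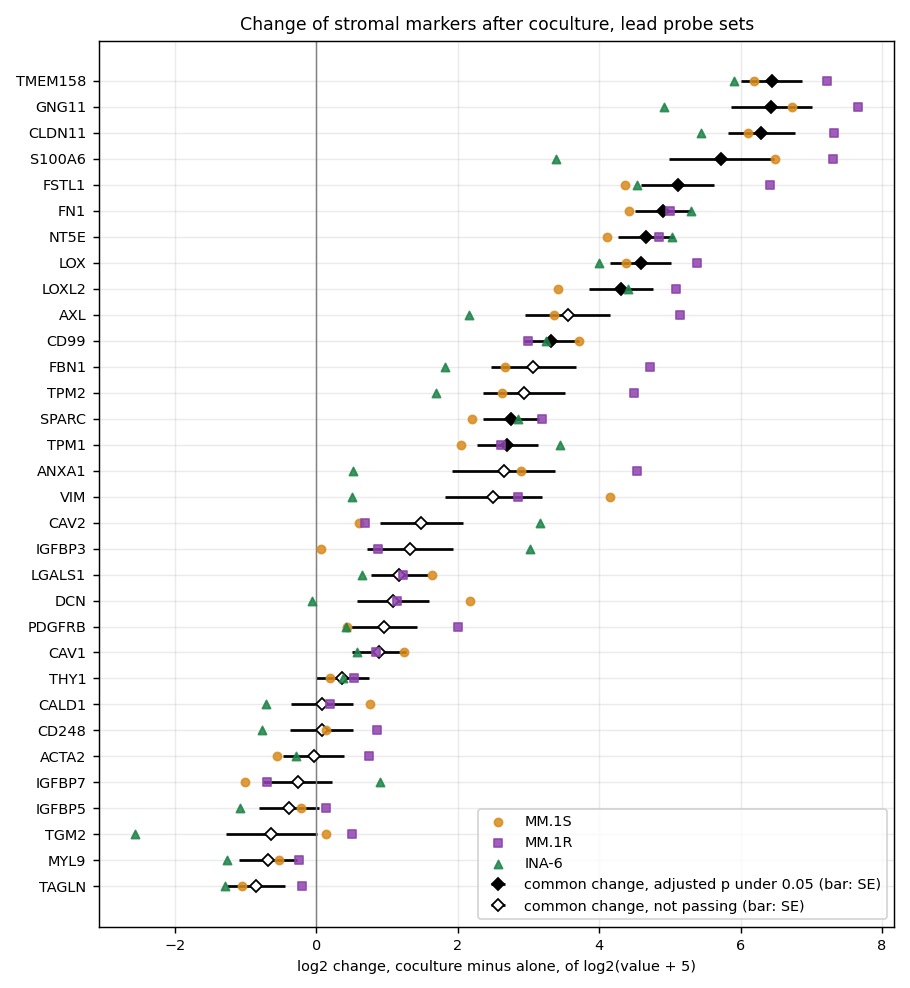
Change after coculture (log2, coculture minus alone) of each gene's lead probe set, ordered by the size of the common change. Diamonds with bars show the common change ± SE, and points the change in each line. TMEM158 (6.44), GNG11 (6.43) and CLDN11 (6.29) stand highest and TAGLN (-0.85) lowest. Of the 32 genes 23 lie above 0 in all 3 lines, a count that was not made over all genes.

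Probe sets of the same gene did not always move together. Of 23 genes with several tested probe sets, 11 had changes of both signs, although in the common fit no gene had probe sets that passed in opposite directions. All tested probe sets passed for 5 genes (SPARC, FSTL1, LOX, S100A6 and TMEM158), but FSTL1, S100A6 and TMEM158 had only 1 each. SPARC and LOX had 2 each. CLDN11 is the plainest case of disagreement, with a lead probe set at 6.29 and the others at -0.33 and -0.01, and in GNG11 the other probe set stood at 0.29. NT5E had 4 tested probe sets, from 1.21 to 4.66, of which 2 passed. The brightest probe set of a gene was not always the one that moved, as CALD1 and TAGLN show.

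**Figure D3:**
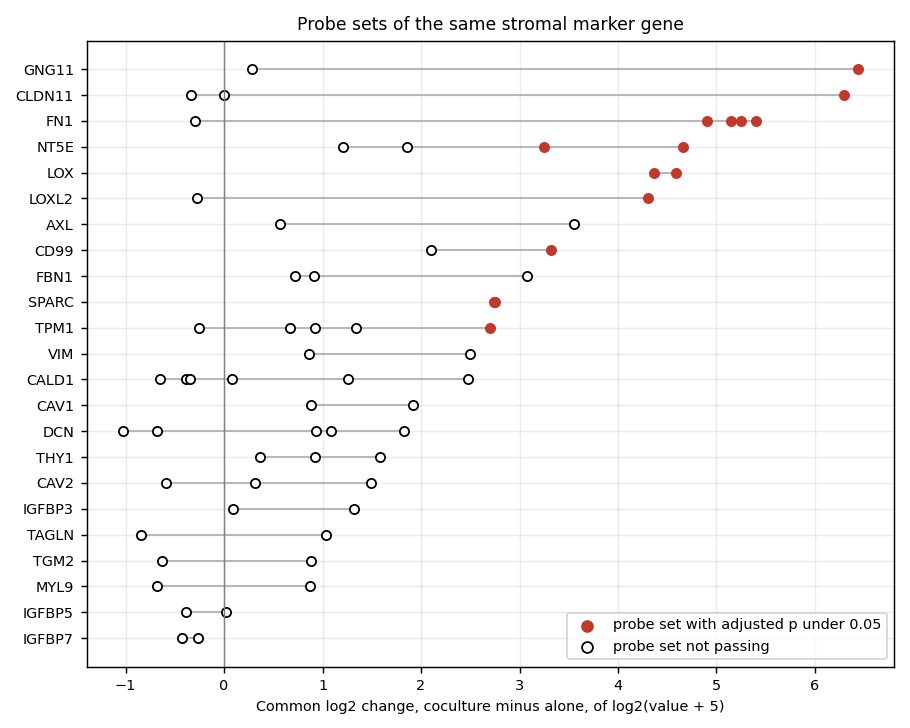
Common change (log2, coculture minus alone) of each tested probe set of the 23 genes with several tested probe sets, by gene. Filled points passed at an adjusted p under 0.05, and genes with a single tested probe set are not drawn. FN1 has 4 probe sets near 5 and 1 near 0, and the 6 probe sets of CALD1 run from -0.65 to 2.47.

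Within single lines the duplicates allow a test of their own, whose p-values measure only the spread between technical duplicates. In MM.1S 34 of 74 probe sets were higher after coculture (45.9%; 20.4% of all tested probe sets) and 0 lower (8.98% of all; 0 also at an unadjusted p under 0.05). In MM.1R 40 were higher (54.1%; 10.5% of all) and 0 lower (3.48% of all; 0 unadjusted). In INA-6 34 were higher (45.9%; 35.2% of all) and 4 lower (5.41%; 12.5% of all). The share of higher stromal probe sets was thus above that of all probe sets by most in MM.1R and by least in INA-6. By lead probe set 21 of 32 genes rose in MM.1S (65.6%; 22.8% of all 15052 genes), 21 in MM.1R (65.6%; 12.0% of all) and 18 in INA-6 (56.2%; 38.2% of all). In each of the 3 lines 17 of them rose (53.1%; 6.6% of all). None fell in MM.1S (7.69% of all) or MM.1R (2.13% of all; 0 unadjusted in either line). TGM2 was the only lead probe set to fall, in INA-6 (-2.56, limma adjusted p = 0.0157, n = 2 arrays a group). Its other tested probe set stood at 0.63 in INA-6 and did not pass (limma adjusted p = 0.395). The other 3 lower probe sets in INA-6 belonged to DCN (-1.87), IGFBP7 (-1.11) and TPM1 (-1.21). Leaving out replicate 1 of INA-6 alone brought the lower probe sets in that line to 12.

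The size of the change differed between the lines for 27 of 74 probe sets (36.5%; 32.8% of all tested probe sets, limma F-test), and for 14 of 32 lead probe sets (43.8%; 33.3% of all genes). Neither share is far from the background. Of the 14 genes, 6 (ANXA1, CAV2, GNG11, IGFBP3, S100A6 and VIM) passed under every alternative setting tried, while LGALS1 and LOXL2 each missed the threshold under 15 of 21, TMEM158 under 14 and CLDN11 under 10. Between MM.1R and MM.1S 0 of 74 probe sets passed in either direction (limma; 0.0701% of all were higher and 0.328% lower). At an unadjusted p under 0.05 the change was larger in MM.1R for 23 and smaller for 2. Those unadjusted counts were not made over all tested probe sets, so whether the split is particular to the set cannot be judged. INA-6 set against the average of the MM.1 lines had a larger change for 7 probe sets (24.1% of all) and a smaller one for 20 (12.8% of all). By lead probe set the change was larger in INA-6 for CAV2 and IGFBP3 and smaller for 10 genes. The IGFBP3 changes were 0.07 in MM.1S, 0.87 in MM.1R and 3.03 in INA-6, a difference of 2.56 ± 0.21 for INA-6 (log2, SE; limma adjusted p = 8.62e-05, n = 12 arrays). Those of VIM were 4.15 in MM.1S, 2.85 in MM.1R and 0.50 in INA-6, a difference of -3.00 ± 0.24 (limma adjusted p = 8.04e-05, n = 12 arrays). In cells alone IGFBP3 was low in INA-6 and VIM was low in MM.1S. ANXA1 (2.89 in MM.1S, 4.53 in MM.1R and 0.53 in INA-6) and S100A6 (6.48 in MM.1S, 7.30 in MM.1R and 3.40 in INA-6) changed less in INA-6, where the alone level was higher, with differences of -3.18 ± 0.29 and -3.50 ± 0.51 (log2, SE; limma adjusted p = 0.000141 and 0.00125, n = 12 arrays).

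Most of the genes were highest in MM.1R after coculture. By lead probe set this held for 24 of 32, while 6 were highest in INA-6 and 2 in MM.1S, an order that was not counted over all genes. All 12 genes that passed the common test were highest in MM.1R, where both arrays stood above the 4 coculture arrays of MM.1S and INA-6. Over all 74 tested probe sets that held for 45 (60.8%, against 13.1% of all tested probe sets), whereas in cells alone it held for 5 (6.76%, against 18.7% of all). For the 12 genes the linear ratio of coculture levels, MM.1R over MM.1S, ran from 1.66 (SPARC) to 2.75 (CLDN11) with a median of 2.19. INA-6 over MM.1S ran from 0.490 (TPM1) to 1.04 (S100A6) with a median of 0.879, and INA-6 over MM.1R from 0.241 to 0.471 with a median of 0.382. In cells alone MM.1R was above MM.1S in 7 of the 12 by mean intensity and in 9 by mean log2(value + 5), and INA-6 was above MM.1S in 5 by either measure. Over all 74 probe sets INA-6 was above MM.1S after coculture in 26 (35.1%, against 50.7% of all tested probe sets) and above MM.1R in 18 (24.3%, against 50.2% of all). The 12 genes were chosen by the common test, so these ratios are given as a description.

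For the 12 genes that passed the common test, which favours changes of like size in all lines, the added intensity (coculture minus alone) is given as a description. It was 2.28 times as high in MM.1R as in MM.1S (median of the 12 genes, range 1.89 to 2.76), and in INA-6 it was 0.871 of that in MM.1S (range 0.597 to 1.01). FSTL1, for example, gained 1824 in MM.1R, 662 in INA-6 and 783 in MM.1S. Another 11 genes gained in all 3 lines without passing, and of these 1 lay in the range of the 12 for MM.1R over MM.1S (ANXA1, 2.24) and 4 for INA-6 over MM.1S. MM.1R gained 3.01 times as much as MM.1S for AXL, 3.22 times for FBN1, 3.73 times for TPM2, 5.68 times for PDGFRB and 13.3 times for IGFBP3. It gained 1.22 times as much for VIM, 1.16 times for LGALS1 and 1.07 times for CAV1. INA-6 over MM.1S ran from 0.31 for VIM, 0.471 for AXL and 0.48 for LGALS1 to 11.7 for IGFBP3. Coculture levels of INA-6 over MM.1S were 7.03 for IGFBP7, 4.51 for ANXA1 and 3.9 for THY1, and 0.259 for CAV2 and 0.0638 for DCN.

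Over all 74 probe sets the median log2 ratio of coculture levels, MM.1R over MM.1S, was 0.77 (quartiles 0.30 and 1.15), and 62 of 74 were above 0 (83.8%). All 35664 tested probe sets had a median of 0.01 (quartiles -0.16 and 0.18), with 52.0% above 0. The medians for INA-6 over MM.1S and over MM.1R were -0.15 and -1.11, beside 0.01 and 0.00 for all tested probe sets. In cells alone the median of the 74 for MM.1R over MM.1S was -0.19.

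**Figure D4:**
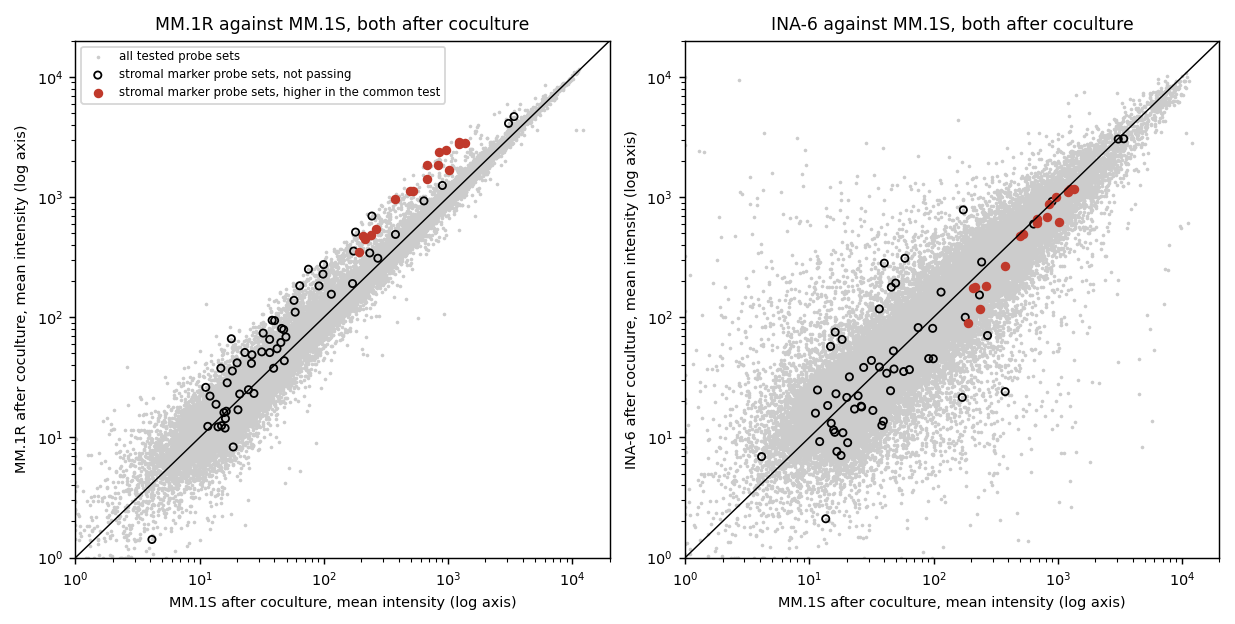
Level after coculture (intensity, log axes) in MM.1R against MM.1S (left) and in INA-6 against MM.1S (right), with the line of equal levels. Grey points are all tested probe sets. Open points are stromal marker probe sets that did not pass the common test, and filled red points are those that did. In the left panel the lead probe sets of the 12 genes that passed lie above the line by 1.66 to 2.75 times.

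Summed over the lead probe sets, the stromal markers read 17785 to 18060 after coculture against 3111 to 3168 alone for MM.1S. They read 32454 to 32972 against 4900 to 4993 for MM.1R and 16527 to 16919 against 6897 to 7213 for INA-6. Of 11 fibroblast collagen genes 5 rose and 0 fell in the common fit (median 2.85). Beside this and the list counts that follow, 1.11% of all tested probe sets rose in that fit and 0.0168% fell. COL6A2 (7.15) and COL6A1 (6.75) had the largest collagen changes and COL12A1 (-1.04) and COL1A1 (-0.47) the smallest. The summed collagens in coculture were highest in MM.1R, at 12318 to 12880, against 6855 to 6892 in MM.1S and 5991 to 6226 in INA-6. Of 12 other matrix genes 2 rose (TGFBI, 6.47, and TNC, 5.31), with a median of 2.15 and TIMP3 (-0.66) and THBS1 (-0.29) the smallest. Of 8 other actin-cytoskeleton genes ACTN1 rose (4.09), with a median of 1.52, CNN3 at 2.44, and LMOD1 (-0.93) and TPM4 (1.26) the smallest.

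Markers of other cells did not pass in the common fit, although many did within single lines. Of the 13 myeloma and plasma cell markers 0 passed by limma (3 at an unadjusted p under 0.05; median 0.58), with IRF4 at 1.36 and PRDM1 at 1.19 the largest and SLAMF7 at -1.03 and CD79A at -0.66 the smallest. Of 6 leukocyte genes 0 passed (1 unadjusted; median 0.27), from LCP1 at 1.5 and CORO1A at 0.75 to CD53 at 0.18 and PTPRC at -0.67. Within lines 10 of the 13 plasma cell markers and 5 of the 6 leukocyte genes rose in MM.1S, against 22.8% of all genes. In MM.1R 3 and 2 rose (12.0% of all), and in INA-6 3 and 1 rose (38.2% of all) while 5 and 3 fell (12.5% of all). The leukocyte genes summed to 10650 to 11153 after coculture against 3054 to 3206 alone for MM.1S, 10679 to 10931 against 6549 to 6551 for MM.1R and 4094 to 4150 against 5517 to 6451 for INA-6. PECAM1 and KDR of endothelium, CSF1R of macrophages and KRT18 of epithelium were the tested markers of those cells, and 0 of the 4 passed (PECAM1 at an unadjusted p under 0.05), with changes of -1.30, -0.13, -0.18 and 1.02. Within lines PECAM1 fell in MM.1S and INA-6 (limma adjusted p = 0.0081 and 0.0017, n = 2 arrays a group), and KRT18 rose in MM.1R and INA-6 (0.0186 and 0.000179). After coculture the highest group mean of the 4 was 195, for KRT18 in INA-6. The levels of these lists differed between coculture and alone by line, and their part in the results on stromal markers was not tested.

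**Figure D5:**
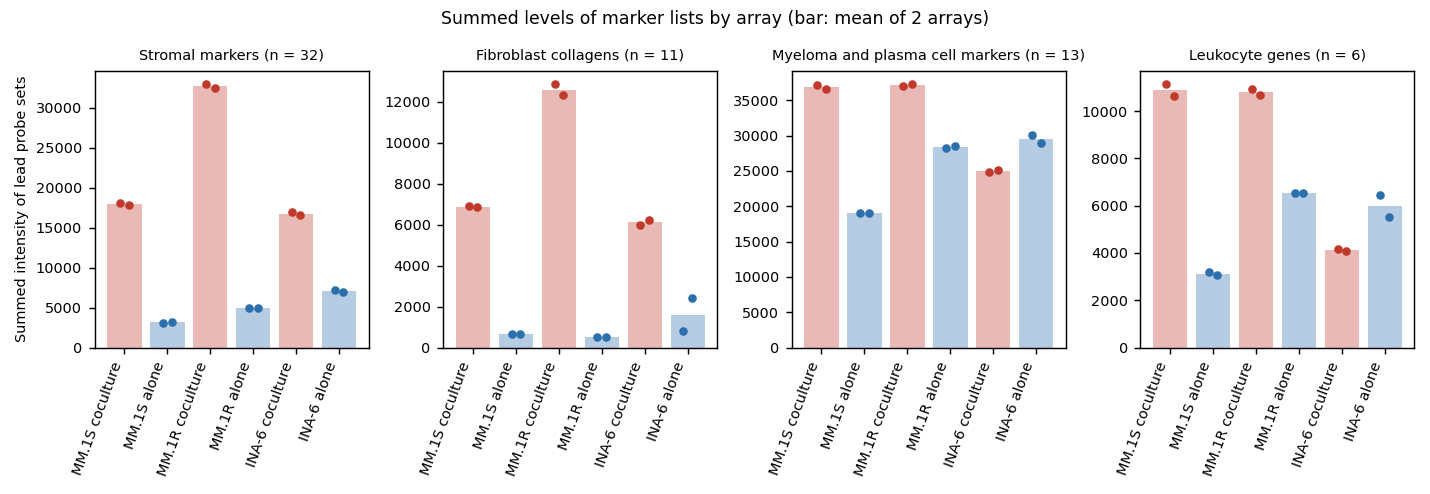
Summed intensity (linear axis) of the lead probe sets on the 12 arrays, by line, with coculture left of alone. The panels show the stromal markers, fibroblast collagens, myeloma and plasma cell markers and leukocyte genes, with bars at the mean of the duplicate arrays. The stromal markers and the collagens stand higher after coculture in all 3 lines and highest in MM.1R, while the plasma cell markers are lower after coculture in INA-6.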

How the data were processed

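Expression was measured on 12 arrays. The deposited values are intensity per probe set on a linear scale. Per the submitters' processing notes the authors used MAS5, while the series text describes dChip, so how they were made is not settled. No version or setting is given in the sources used here. Each array has its own column. Of 54675 probe sets 1 with a missing value was left out, and 62 controls were not tested. Symbols come from the platform annotation (41097 probe sets with 1 symbol, 1801 with several, 11776 with none), and no member probe set is shared with another symbol. No array coordinates are given.

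Values were taken as log2(value + 5). A probe set was tested if above its array's median on at least 2 of 12 arrays. limma 3.58.1 (R 4.3.3) fitted the common effect on duplicate means with line as block (2 residual degrees of freedom, prior 4.82), and the effects within and between lines on 12 arrays with 6 group means (6 residual degrees of freedom, prior 2.21). Tests were two-sided, adjusted by Benjamini-Hochberg over 35664 probe sets, with a threshold of 0.05. Counts at an unadjusted p were made for the stromal markers and marker lists only, not over all tested probe sets. Nothing says that duplicates came from separate cultures, so p-values of the 12-array fit measure only the spread between them. The lines are the replicates of the common fit, although MM.1R derives from MM.1S. Fits were tested on simulated data. The genes, marker lists, tests and alternatives were chosen with earlier results of these data known. Each gene was named, with values per array for the largest and smallest lead change of each role group, and marker lists by their counts and 2 largest and smallest changes. Array numbers limit the precision. Alternatives were the pseudocount, filter, scaling, 1 probe set per gene, the handling of duplicates, and leaving out arrays and lines.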

Additional observations from a re-analysis of the deposited data

Results flagged for a closer look

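For 14 of 32 genes (43.8%; 33.3% of all genes) the change after coculture differed between the lines by the F-test on the lead probe set, which measures only the spread between duplicate arrays. The span between the largest and smallest log2 change of the 3 lines was 4.0 for ANXA1 (limma F-test adjusted p = 0.000312, n = 12 arrays), 3.91 for S100A6 (0.00341), 3.64 for VIM (0.000209) and 2.75 for GNG11 (0.000972), with the smallest change in INA-6 in each. It was 2.96 for IGFBP3 (0.000252) and 2.57 for CAV2 (0.00039), with the largest change in INA-6. It was 2.98 for AXL (0.0207), 2.81 for TPM2 (0.0138), 1.88 for CLDN11 (0.0247), 1.58 for PDGFRB (0.0145) and 1.32 for TMEM158 (0.0437), with the largest change in MM.1R and the smallest in INA-6. For LOXL2 it was 1.67 (0.0397), with the largest change in MM.1R and the smallest in MM.1S. DCN spanned 2.22 (0.0251) and LGALS1 0.99 (0.0323), with the largest change in MM.1S and the smallest in INA-6. The calls of ANXA1, CAV2, GNG11, IGFBP3, S100A6 and VIM held under every alternative. Of 21 alternatives LGALS1 and LOXL2 each missed the threshold under 15 (limma adjusted p up to 0.303 and 0.121), TMEM158 under 14 (0.152), CLDN11 under 10 (0.108), AXL and DCN under 5 each (0.074 and 0.0932) and TPM2 under 2 (0.0502), and PDGFRB under 4 of 20 (0.0648). With the replicate number as a block within each line, limma adjusted p was 0.0947 for LGALS1, 0.0504 for LOXL2, 0.0651 for TMEM158 and 0.0531 for CLDN11. Most of the losses came when single arrays were left out. Groups of 2 arrays are too small to look for single arrays that stand apart.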

How the results depend on the processing

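The count of 18 higher probe sets in the common fit became 40 when the 12 arrays entered without averaging and 39 without the INA-6 line, and it ran from 14 to 20 when single arrays were left out. The 12 genes kept their direction under all 24 alternatives, and 9 of them their call. SPARC missed it under 6 (limma adjusted p up to 0.101, without MM.1R), TPM1 under 7 (up to 0.0906, after quantile normalization) and S100A6 under 2 (up to 0.0671, with no filter). AXL passed under 15 of 24, FBN1 under 7 and TPM2 under 5.

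With 1 probe set per gene the counts within lines were 21, 22 and 19 in MM.1S, MM.1R and INA-6 and 14 for the difference between lines, since fewer features are counted. Leaving out single arrays gave 27 to 36, 31 to 47 and 29 to 37 higher probe sets, and 14 to 41 for the difference (41 without INA-6 alone replicate 1, 17 without MM.1S coculture replicate 1 or replicate 2 or MM.1R alone replicate 1, 14 without MM.1R coculture replicate 1 or either INA-6 coculture array). Deviations of same-numbered arrays correlated at 0.29, 0.47 and 0.06 in MM.1S, MM.1R and INA-6, so the numbers were not taken as pairs. The replicate number as a block gave 38 higher in the common fit, which then also counts the arrays as independent, and 1 probe set was lower in this fit and in the one without averaging. As a block within each line, added after seeing the data, it gave 32, 37 and 33, and 24 for the difference.

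The median log2 ratio MM.1R over MM.1S was 0.58 with a pseudocount of 20 and ran from 0.75 to 0.92 without single arrays. It was 1.03 over the 8 probe sets below the array median in all 6 alone arrays, which entered the test only through coculture arrays. INA-6 over MM.1S was -0.17 after quantile normalization, -0.19 after centring and -0.40 over the low probe sets (-0.21 to -0.13 without single arrays). INA-6 over MM.1R was -1.18 and -0.76 with pseudocounts of 1 and 20 and -1.44 over the low probe sets (-1.17 to -1.06 without single arrays).

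The median of all tested probe sets (0.18) was -0.00383 after quantile normalization and -0.035 with no filter. Genes near 0 changed sign, none of them past the threshold. Under quantile normalization CD248 stood at -0.34 and CALD1 at -0.14. Without single arrays CD248 ran from -0.057 to 0.21 (negative values -0.038, -0.057 and -0.011), CALD1 from -0.089 to 0.25 (-0.027, -0.00529 and -0.089), ACTA2 from -0.20 to 0.13 (positive values 0.12, 0.057, 0.036, 0.020 and 0.13), and IGFBP7 from -0.92 to 0.39 (0.39 without INA-6 alone replicate 1). Without the MM.1S line ACTA2, IGFBP7 and CALD1 stood at 0.22, 0.11 and -0.26, without MM.1R CD248 at -0.316, and without INA-6 ACTA2 and TGM2 at 0.093 and 0.33. The cause was not tested. Signal over background limits the genes read near the array median.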
